A study of Mus musculus with 6 samples.

Results

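The clustered histone genes described here were the core histone genes of the 2 large histone clusters of the mouse genome, measured by RNA sequencing of the heart. They were chosen by name, as symbols beginning with Hist1h to Hist4h or with H2ac, H2bc, H3c or H4c and a digit, excluding names that end as pseudogenes. Of 45777 genes in the count table, 58 had such a name, and 57 were kept because their counts averaged 10 or more across the 6 libraries. They comprised 17 H2A, 17 H2B, 12 H3 and 11 H4 genes, 47 of the Hist1 group and 10 of the Hist2 group. H2ac1, with a mean of 0.33 counts, was left out, and H2bc1, with a mean of 12.7, lay closest to the limit among those kept. No gene named for Hist3 or Hist4 and no linker histone was among them, because the table names the linker genes H1f1 to H1f6.

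The hearts came from BALB/c nude mice (CAnN.Cg-Foxn1nu/Crl), which lack a thymus through Foxn1nu and therefore have few mature T cells. The animals were aged 6 weeks per the labels, and each carried a subcutaneous tumour grown from MDA-MB-231, a human breast cancer cell line. Control, Rh2-20 mg/kg and Rh2-30 mg/kg animals received no doxorubicin (Dox), a DNA-intercalating anthracycline that poisons topoisomerase II. The animals of the Dox arm, and those of the combined arms that also received either dose of Rh2, were given 2 mg/kg of Dox on alternate days to a cumulative 22 mg/kg. Ginsenoside Rh2, a saponin of ginseng, was injected daily at 20 or 30 mg/kg, and treatment lasted 3 weeks. RNA of 5 hearts was pooled for each library and there was 1 library per condition, so the spread between animals was not measured. Comparisons with Dox set 3 libraries against 3 at matched Rh2 doses (0, 20 and 30 mg/kg), and the libraries of each side therefore also differed in Rh2. Below, values in every library are given in the order of Rh2 doses 0, 20 and 30 mg/kg, first for the libraries without Dox and then for those with it. Each library held 86164411 to 90621002 counts. The summed level of 10 cardiomyocyte markers was 24900 to 34900 CPM (counts scaled to the same normalized library size), and none of them was at 0.

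Core histones H2A, H2B, H3 and H4 form the protein spool around which DNA is wound. Genes of the clusters are transcribed mainly in S phase, when new chromatin is assembled, and their mRNA usually ends in a short stem-loop in place of a poly(A) tail. The stem-loop is bound by SLBP, which is needed for processing, translation and decay of the message. Replication-independent variants such as H3f3a and H2afz are encoded elsewhere, are made throughout the cell cycle and carry poly(A) tails. Anthracyclines are known to evict histones from chromatin in addition to trapping topoisomerase II. The comparison with Dox addresses whether the transcripts that supply these histones differed in treated hearts, and the Rh2 arms address whether that difference changed with the ginsenoside.

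The processing signal itself was read from GENCODE transcripts of the files' build. The search took only perfect stems of 6 bases that begin with GG, with a loop of 4 that begins with TT. Such a stem-loop was found in 36 of the 56 members that GENCODE holds, in 6 distinct forms. Among all 55450 GENCODE genes, 185 (0.334%) held 1. Some members have a GENCODE transcript shorter than the RefSeq gene, such as H2bc13 (381 against 473 bases), and a stem-loop may lie past its end. Each form is shown once, on the mRNA-sense strand with 4 flanking bases on either side and the stem-loop in capitals, because the forms of the H4 genes were not shared with the other types.

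H2ac18: aaaaGGCTCTTTTCAGAGCCaccc
H2ac20: aaaaGGCTCTTTTTAGAGCCacca
H3c3: aaaaGGCTCTTTTAAGAGCCacct
H4c4: caaaGGCCCTTTTCAGGGCCacta
H4c9: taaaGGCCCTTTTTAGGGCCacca
H4c11: taaaGGTCCTTTTCAGGACCacca

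The form of H2ac18 was carried by 9 H2A, 7 H2B and 5 H3 genes. The form of H3c3 occurred in 3 H3 and 2 H2B genes, and that of H2ac20 in this gene only. The 3 remaining forms were found in H4 genes, 5 with the form of H4c4, 2 with that of H4c9 and 2 with that of H4c11. For members with a stem-loop, the first listed GENCODE transcript that holds it was read. That transcript ended within 60 bases of the stem-loop in 20 members. In 13 it ran at least 300 bases past it, as in H4c4, where 770 bases followed.

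RefSeq promoter windows were available for 51 members. The 2 members with the lowest log2 fold change with Dox (H2bc14 and H3c3) and the most abundant H4 and H2A genes (H4c4 and H2ac18) are shown from 150 bases before to 20 after the annotated start, on the gene's strand and on GRCm38.p6, the assembly that mm10 names. H2bc14 lies at chr13:21721894-21722063, H3c3 at chr13:23745502-23745671, H4c4 at chr13:23581418-23581587 and H2ac18 at chr3:96245347-96245516. Capitals mark the octamer core TTTGCAT, the CCAAT box, the TATA box written as TATAAA, and the core of the H4 site GGTCCG, on either strand.

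H2bc14: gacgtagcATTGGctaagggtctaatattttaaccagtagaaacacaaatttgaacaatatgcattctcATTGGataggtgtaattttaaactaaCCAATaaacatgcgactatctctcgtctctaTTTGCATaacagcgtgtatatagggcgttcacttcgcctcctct
H3c3: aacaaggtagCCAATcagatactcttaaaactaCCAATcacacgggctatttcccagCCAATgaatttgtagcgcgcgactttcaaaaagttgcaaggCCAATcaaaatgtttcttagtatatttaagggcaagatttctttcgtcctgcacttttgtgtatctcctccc
H4c4: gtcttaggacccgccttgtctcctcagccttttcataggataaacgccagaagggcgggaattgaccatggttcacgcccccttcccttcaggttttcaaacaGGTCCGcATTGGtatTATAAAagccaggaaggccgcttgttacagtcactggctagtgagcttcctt
H2ac18: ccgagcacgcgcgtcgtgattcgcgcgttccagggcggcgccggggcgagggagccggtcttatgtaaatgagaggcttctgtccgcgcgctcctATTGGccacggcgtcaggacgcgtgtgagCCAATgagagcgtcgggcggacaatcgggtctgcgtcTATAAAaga

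Motifs were counted in longer windows, from 250 bases before to 50 after the annotated start. A motif counted may therefore lie outside the stretch that is shown. The letters CCAAT, read by NF-Y, were found in every H2A, H2B and H3 window available (100%). They were found in 30% of the 10 H4 windows and in 37.9% of all 27025 promoter windows. GGTCCG, the core of the H4 site read by Hinfp, occurred in 90% of H4 windows, in 0% of H2A, 6.67% of H2B and 10% of H3 windows, and in 8.39% of all windows. TATAAA was held by 62.5% of H2A, 46.7% of H2B, 40% of H3 and 80% of H4 windows, against 14.2% of all. TTTGCAT, the octamer core read by Oct-1, was held by 31.2% of H2A, 40% of H2B, 0% of H3 and 10% of H4 windows, against 4.59% of all. These are matches of letters and do not show binding.

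Levels per length differed widely among the members. On the FPKM scale, which divides by transcript length, the mean over the 6 libraries ran from 0.247 for H2bc1, a testis-type H2B, to 116 for H4c4, with a median of 9.78. H4c4 was followed by H2ac18 (67.5), H4c3 (57.1) and H2ac19 (55.2). H2ac18 and H2ac19 are neighbouring copies, and 88.3% and 100% of the stretches of 1 read length in their transcripts occur in other GENCODE genes, so their separate values depend on how the authors' tools assigned shared reads. H4c4 had no such stretch (0%).

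In the 3 libraries with Dox, 53 of the 57 members were lower than in the 3 without, as were 9676 of the 18328 genes tested. The members' median log2 fold change was -0.74, against -0.01 over all genes tested. No member passed an adjusted p of 0.05 in edgeR's quasi-likelihood test, in which 5 genes passed overall (0.0273%) and the lower ones among them were the mitotic genes Cenpf and Nek2. At an unadjusted p under 0.05, 34 members were lower, beside 5.91% of all genes, and 0 were higher, beside 4.2%. The 3 libraries with Dox did not overlap the 3 without for 29 lower members and for 0 higher members, where the shares over all genes were 9.16% and 7.85%. DESeq2's Wald test, run on the same counts, put 17 members below an adjusted p of 0.05, all lower, beside 1.52% of all genes lower. The 34 members became 18 when the Rh2 dose entered the fit as a term (5.1% of all genes lower in that fit) and 22 without the Rh2-30 mg/kg library (4.83%). In bulk tissue, fewer cells that make these transcripts and less RNA per cell cannot be told apart.

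**Figure D1:**
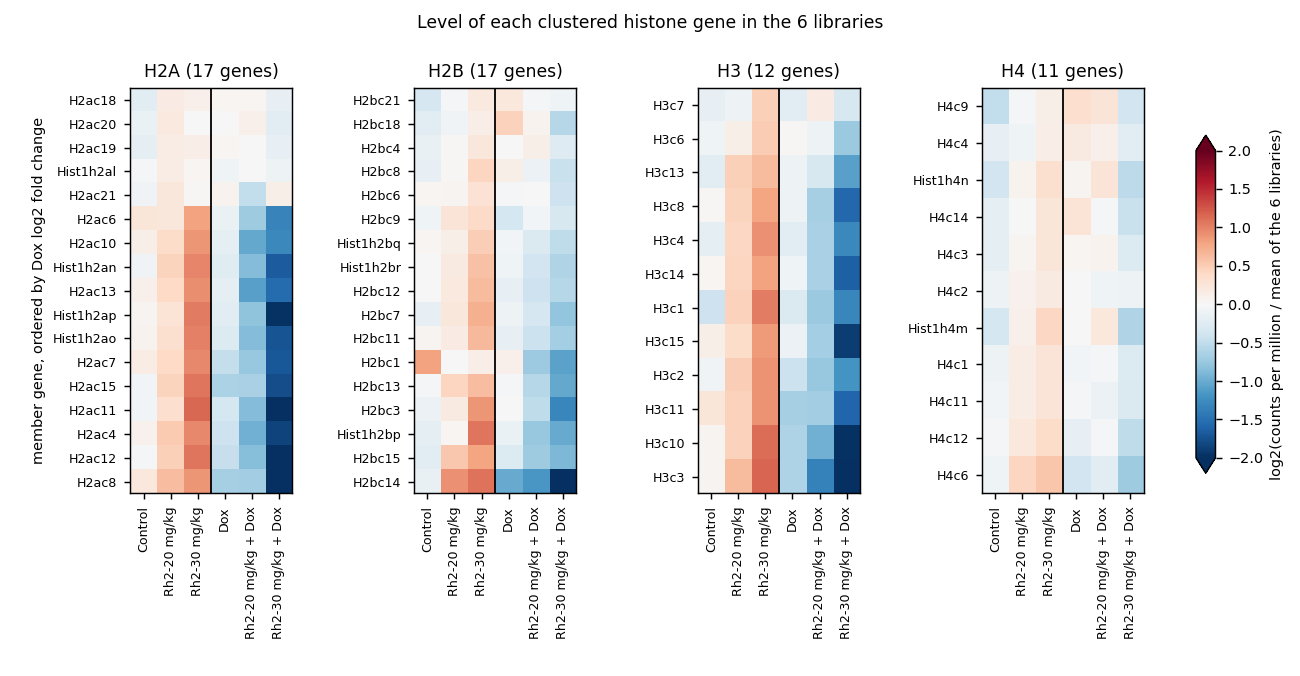
Level of each member in the 6 libraries, as log2 of its normalized CPM over its own mean (colour, values beyond 2 are clipped), with genes in rows by histone type and libraries in columns, those with Dox to the right of the black line. Most Hist1 H2A genes and most H3 genes are highest in Rh2-30 mg/kg and lowest in Rh2-30 mg/kg + Dox, whereas the top rows of H2A and most H4 rows are pale.

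The difference with Dox was uneven among the histone types. H2A genes had a median log2 fold change of -1.34, H3 genes -1.15, H2B genes -0.67 and H4 genes -0.12. Unadjusted p-values under 0.05 were reached by 12 of 17 H2A, 10 of 12 H3, 10 of 17 H2B and 2 of 11 H4 genes, all lower. Among all genes 5.91% were lower at that threshold. The difference between types was not tested, because members share reads, clusters and libraries and are not replicates.

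**Figure D2:**
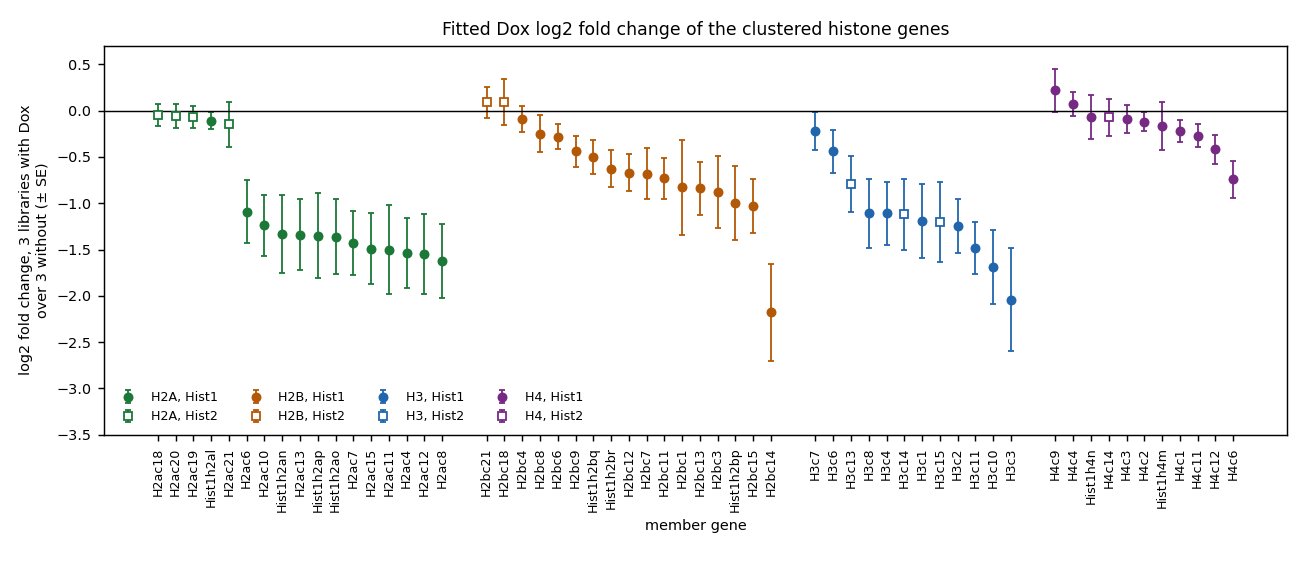
Fitted log2 fold change of the 3 libraries with Dox over the 3 without for each member (points, bars are SE of the fit), grouped by histone type, filled circles for Hist1 and open squares for Hist2. The H2A genes fall into a group near 0 and a group of 12 between -1.62 and -1.09, H2bc14 at -2.18 and H3c3 at -2.04 lie lowest, and the H4 genes lie between -0.74 and 0.22.

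H2A proteins form, with H2B, the dimers that are exchanged most readily from the nucleosome. The H2A genes split by position. The 12 protein-coding H2A genes of the Hist1 cluster on chromosome 13 had log2 fold changes of -1.62 to -1.09. In each of them every library with Dox was below every library without, as in 9.16% of all genes. The 4 Hist2 H2A genes on chromosome 3 (H2ac18 to H2ac21) lay between -0.15 and -0.05 with overlapping libraries. H2ac8 (chr13:23570663-23571220, minus strand) measured 2.92, 3.85 and 4.62 CPM without Dox and 1.58, 1.55 and 0.564 with it. Its mean was 3.80 ± 0.853 (SD, n = 3 libraries) without Dox and 1.23 ± 0.579 with it, a log2 fold change of -1.62 with SE 0.40 and an edgeR adjusted p of 0.311. H2ac12 (chr13:22035122-22035643, minus strand) measured 6.45, 9.04 and 13.7 without Dox and 4.72, 3.62 and 1.62 with it, and its log2 fold change was -1.55 (SE 0.43, edgeR adjusted p = 0.336). In both genes the groups did not overlap and the lowest library was Rh2-30 mg/kg + Dox.

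The most abundant H2A genes gave another picture. H2ac18 (chr3:96245497-96246052, plus strand) measured 41.7, 54.7 and 52.4 CPM without Dox and 50.2, 49.8 and 43.5 with Dox, and H2ac19 (chr3:96239779-96240374, minus strand) measured 37.4, 47.2 and 46.6 against 43.7, 43.1 and 38.1. Their log2 fold changes of -0.05 (SE 0.12) and -0.07 (SE 0.12) were within the spread of the libraries, with edgeR adjusted p of 0.919 and 0.881, and that of H2ac18 was 0.03 without the Rh2-20 mg/kg library. Hist1h2al, listed by RefSeq as a transcribed pseudogene at chr13:51200084-51203066, away from the cluster, measured 32.5, 36.9 and 34.3 without Dox and 31.5, 33.6 and 31.0 with it (log2 fold change -0.11, SE 0.09, edgeR adjusted p = 0.719). Because these 3 genes held much of the H2A signal, the summed H2A level differed less than its typical gene. It was 192, 241 and 273 CPM without Dox and 192, 180 and 148 with it. The log2 ratio, the mean log2 level with Dox minus that without, was -0.44. For the 12 coding Hist1 H2A genes alone, the sum was 62.8, 80.0 and 120.0 without Dox and 46.8, 33.6 and 18.3 with it, a log2 ratio of -1.46.

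H2B, the partner of H2A, had 10 of 17 genes lower at an unadjusted p under 0.05 (5.91% of all genes). The groups did not overlap for 7 of them (9.16% of all genes, lower). H2bc14 (chr13:21722044-21722526, plus strand) had the lowest log2 fold change of all members. It measured 2.44, 5.11 and 5.76 CPM without Dox, and 1.34, 1.21 and 0.380 in the libraries with Dox at the matched Rh2 doses. Its mean was 4.43 ± 1.76 (SD, n = 3 libraries) without Dox and 0.978 ± 0.523 with it, a fold of 0.221 and a log2 fold change of -2.18 with SE 0.52, with an edgeR adjusted p of 0.295 and a DESeq2 adjusted p of 0.00167. Only 6.37% of its read-length stretches occur in other genes, the figure for H3c3 being 28.1%.

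The 3 H2B genes with the most counts lay nearer 0. H2bc4 measured 19.1, 21.4 and 24.8 CPM without Dox and 21.0, 22.9 and 17.6 with it (log2 fold change -0.09, SE 0.14, edgeR adjusted p = 0.876). H2bc18, a Hist2 gene, measured 16.1, 18.1 and 20.8 without Dox and 25.9, 19.8 and 12.8 with it (log2 fold change 0.09, SE 0.25, edgeR adjusted p = 0.932), and its value was -0.17 without the Dox library. H2bc6 measured 19.0, 19.1 and 22.7 against 17.9, 18.3 and 13.9, which did not overlap, with a log2 fold change of -0.28 (SE 0.14, edgeR adjusted p = 0.556). The FPKM values of H2bc6 did not follow its counts, at 29.7, 8.88 and 9.33 without Dox and 28.4, 6.94 and 4.11 with it. This gene has 3 GENCODE transcripts. Its log2 fold change given here rests on counts, while its FPKM entered the comparisons of level and the alternative on the FPKM scale.

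H3 pairs with H4 in the core of the nucleosome, and its N-terminal tail carries many of the known regulatory marks. All 12 H3 genes were lower with Dox, 10 at an unadjusted p under 0.05 (5.91% of all genes). H3c3 (chr13:23745042-23745521, minus strand) measured 4.39, 6.57 and 9.53 CPM without Dox and 2.77, 1.67 and 0.552 with it. Its mean was 6.83 ± 2.58 (SD, n = 3 libraries) without Dox and 1.66 ± 1.11 with it, a log2 fold change of -2.04 with SE 0.56 and an edgeR adjusted p of 0.336. H3c10 (chr13:21717628-21718115, plus strand) measured 4.42, 5.87 and 9.22 against 2.77, 2.19 and 1.08, with a log2 fold change of -1.69 (SE 0.40, edgeR adjusted p = 0.294). In both genes every library with Dox was below every library without, and the order of the 3 libraries ran opposite ways on the 2 sides, upward with Rh2 dose without Dox and downward with it.

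The H3 genes with the most counts differed less. H3c6 measured 14.5, 16.8 and 22.1 CPM without Dox and 15.7, 14.4 and 9.29 with it (log2 fold change -0.44, SE 0.23, edgeR adjusted p = 0.575). H3c7 measured 10.9, 11.4 and 17.0 against 10.4, 13.7 and 9.71 (log2 fold change -0.22, SE 0.21, edgeR adjusted p = 0.778), and its value was 0.02 without the Rh2-30 mg/kg library. The libraries of both genes overlapped between the groups. H3c4 measured 7.37, 11.1 and 15.6 against 7.10, 5.28 and 3.39, and although Control and Dox were close the groups did not overlap (log2 fold change -1.11, SE 0.34, edgeR adjusted p = 0.368). H3c11, chosen after its values were seen, had the lowest p of the members, with a log2 fold change of -1.48 (SE 0.28), an edgeR adjusted p of 0.216 and a DESeq2 adjusted p of 8.1e-05. The 3 Hist2 H3 genes had log2 fold changes of -1.20 to -0.79, lower than those of the Hist2 H2A genes next to them. H3c14 lies at chr3:96246685-96247348, directly beside H2ac18, and had a log2 fold change of -1.12 (SE 0.38, edgeR adjusted p = 0.410). All of its read-length stretches (100%) occur in other genes.

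H4 genes had the highest median FPKM of the 4 types and the median log2 fold change nearest 0. Log2 fold changes ran from -0.74 to 0.22, and 9 of 11 were below 0. H4c4 (chr13:23581568-23581969, plus strand) measured 53.9, 57 and 66.3 CPM without Dox and 68.9, 64.8 and 52.2 with it (log2 fold change 0.07, SE 0.13, edgeR adjusted p = 0.898), and it was -0.01 without the Dox library. H4c3 measured 24.3, 28.8 and 32.8 against 28.5, 29.3 and 22.9 (log2 fold change -0.09, SE 0.15, edgeR adjusted p = 0.877), and H4c1 measured 23.9, 28.4 and 30.8 against 24.7, 25.3 and 21.2 (log2 fold change -0.22, SE 0.12, edgeR adjusted p = 0.592). All 3 overlapped between the groups. The H4 genes below an unadjusted p of 0.05 were H4c6 and H4c12, named after their values were seen. H4c6 measured 12.2, 17.4 and 18.9 against 9.89, 11.1 and 7.91, without overlap, and its log2 fold change was -0.74 (SE 0.20, edgeR adjusted p = 0.331). H4c12 had a log2 fold change of -0.42 (SE 0.16, edgeR adjusted p = 0.440).

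**Figure D3:**
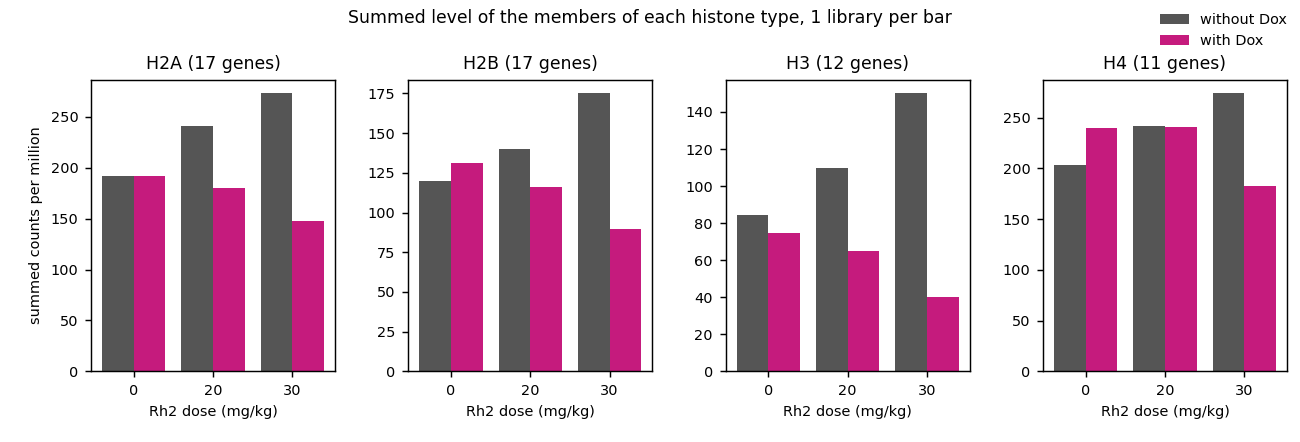
Summed normalized CPM of the members of each histone type, 1 library per bar, without Dox (grey) and with Dox (magenta) at each Rh2 dose in mg/kg. Bars without Dox are taller at each step of dose in all 4 types. With Dox the H3 sum goes from 74.9 at dose 0 to 40.0 at 30 mg/kg.

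Summing reads over the genes of a type reduces the question of which copy a read came from. Reads shared with genes outside the type are not resolved by it. How often a shared read was counted is not given in the sources used here. The H3 sum was 84.3, 110.0 and 150 CPM without Dox and 74.9, 65.1 and 40.0 with it, without overlap. Its means were 115.0 ± 32.9 and 60 ± 18 (SD, n = 3 libraries each). The log2 ratio, again between mean log2 levels, was -0.95. The H2B sum was 120.0, 140.0 and 175.0 against 131.0, 116.0 and 89.8, and the log2 ratio was -0.37. The H4 sum was 203.0, 242.0 and 274.0 against 240.0, 241.0 and 183.0, and the log2 ratio was -0.11. Over all 57 members the sum was 599.0, 734.0 and 871.0 without Dox and 638.0, 602.0 and 461.0 with it, a log2 ratio of -0.37. The all-member, H2B and H4 sums overlapped between the groups. Between the single libraries Dox and Control, the log2 ratio of the all-member sum was 0.09. By type it was 0.24 for H4, 0.13 for H2B, -0.00 for H2A and -0.17 for H3. For the 12 coding Hist1 H2A genes alone it was -0.42.

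The Dox difference was therefore taken apart by Rh2 dose. Each of the 3 ratios set 1 library with Dox over the library without at the same Rh2 dose and carries no replicate check. The median log2 ratio of the members was -0.09 without Rh2, -0.69 at 20 mg/kg and -1.33 at 30 mg/kg, where the medians over all genes were 0.00, 0.00 and -0.03. Members lower by more than a fold of 2 numbered 0 without Rh2 (3.58% of all genes), 23 at 20 mg/kg (2.87%) and 35 at 30 mg/kg (12.1%), and none was higher by that fold (5.44%, 4.09% and 2.4% of all genes). The log2 ratio went down at each step of dose for 54 of 57 members, as it did for 22.2% of all genes. The exceptions were H2ac21, H2bc6 and H3c7. It was below 0 at all 3 doses for 32 members (17.6% of all genes).

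**Figure D4:**
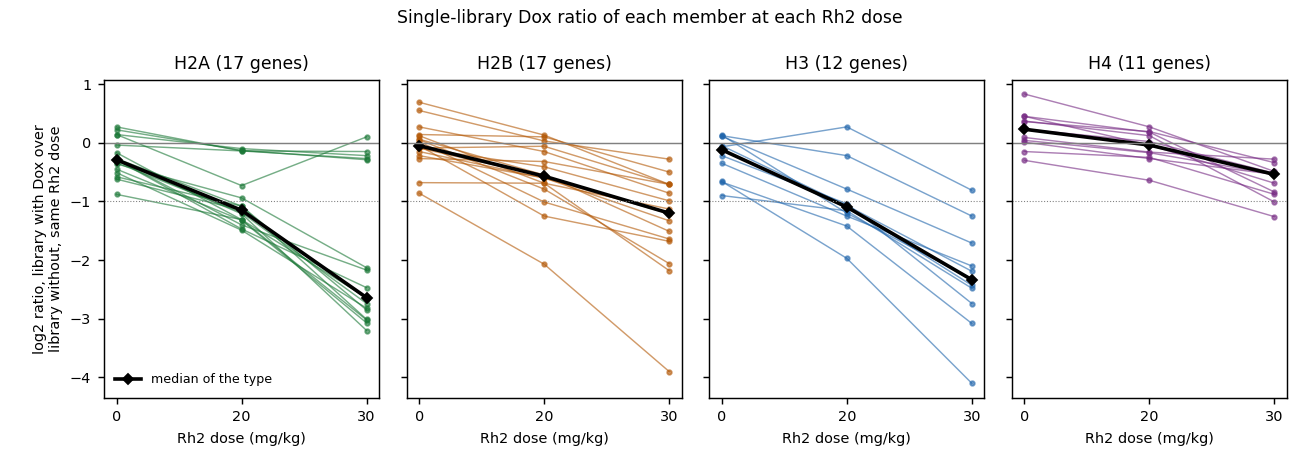
Log2 ratio of the library with Dox over the library without at the same Rh2 dose (mg/kg) for each member (thin lines) and the median of each histone type (black), with the dotted line at a fold of 2 lower. Medians of H2A and H3 go from -0.29 and -0.12 without Rh2 to -2.64 and -2.33 at 30 mg/kg, and that of H4 from 0.23 to -0.54.

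H3c3 had log2 ratios of -0.66 (95% counting interval -0.91 to -0.42), -1.97 (-2.24 to -1.72) and -4.10 (-4.56 to -3.69) at 0, 20 and 30 mg/kg, from 366, 592 and 904 reads without Dox and 233, 153 and 48 with it. H2bc14 had ratios of -0.86 (-1.20 to -0.52), -2.07 (-2.39 to -1.77) and -3.90 (-4.48 to -3.42). H4c4, at the other end, had 0.36 (0.30 to 0.41), 0.19 (0.13 to 0.24) and -0.34 (-0.40 to -0.29). These intervals are exact conditional binomial ones and cover counting error only. In the abundant H4c4 the ratio also went down with dose, from a start above 0.

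A Dox by Rh2 interaction was fitted, which asks whether the Dox difference with Rh2 (20 or 30 mg/kg) differs from that without it. It treats both doses alike, so the step from 20 to 30 mg/kg was not tested. This fit was chosen after the data were seen and has 2 residual degrees of freedom. Those come from 20 against 30 mg/kg within each Dox state, so any effect of dose counts as spread. The median interaction over the members was -0.90, against -0.01 over all genes. Of the members, 10 were negative at an unadjusted p under 0.05 (1.82% of all genes) and 0 were positive (0.895%). No member and no other gene passed an adjusted p of 0.05 in this edgeR test, and no other tool was run for it. The difference in the Dox effect with Rh2 was therefore not established beyond a spread that includes any effect of dose.

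The same pattern was seen from the side of Rh2. Without Dox, the members' median log2 ratio to Control was 0.29 at 20 mg/kg of Rh2 and 0.65 at 30 mg/kg, where the medians over all genes were 0.00 and 0.03. At the higher dose 56 of 57 members and 9811 of the 18328 genes tested were above Control, and H2bc1 was the member that was not. By more than a fold of 2, 1 member was higher at 20 mg/kg (3.35% of all genes), namely H2bc14, and 11 were higher at 30 mg/kg (8.48%), led by H3c1 at 1.43. With Dox, the median log2 ratio to the Dox library was -0.25 at 20 mg/kg and -0.76 at 30 mg/kg. No member was lower by a fold of 2 at 20 mg/kg (3.44% of all genes) and 24 were at 30 mg/kg (7.35%). The 2 ratios without Dox share the Control library and the 2 with Dox share the Dox library.

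As a result, Rh2-30 mg/kg was the highest of the 6 libraries for 46 members (26.1% of all genes), and Rh2-30 mg/kg + Dox was the lowest for 51 (23.2%). The members for which both held numbered 45, where 9.46% of all genes did so. Pooled over doses, 4 libraries with Rh2 against 2 without, and with Dox as a term, the members' median log2 fold change was -0.01. No gene passed an adjusted p of 0.05 in that edgeR test, and 0 members were lower (4.65% of all genes) or higher (4.09%) at an unadjusted p under 0.05. DESeq2 called 247 genes there and 0 members. At an unadjusted p under 0.05, 3 members were lower without the Control library (2.61% of all genes in that fit), and 4 and 3 were higher without the Dox library (1.92%) or the Rh2-30 mg/kg + Dox library (3.84%).

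Members with lower levels tended to have the lower log2 fold changes. H2bc21 (mean FPKM 1.48, log2 fold change 0.09) and H2ac21 (2.42 and -0.15) were exceptions. All 11 H4 genes lay at a mean FPKM of 19.9 or above, so level and histone type overlapped. Across the 57 members, mean FPKM and the Dox log2 fold change had a Spearman's rho of 0.58, where all genes tested gave 0.16. The members share libraries, and many share reads and promoter letters, so this is a description. Of the 38 members with under 1000 mean counts, 33 had a log2 fold change under -0.5, and of the 19 with 1000 or more, 1 did, namely H4c6. Read sharing differed along the same axis. The 42 members with at least 20% of their read-length stretches in other genes had a median of -0.94 and the 14 below 20% a median of -0.21, and rho between that share and the fold change was -0.29 over 56 members. Exceptions ran both ways. H2bc14 had little sharing and the lowest fold change, and H2ac15 (10.2% shared, -1.49) and H2ac6 (7.93%, -1.09) were also clearly lower. H2ac19 (100%, -0.07) and H2ac18 (88.3%, -0.05) were near 0 with most stretches shared. Members whose transcript ended within 60 bases of the stem-loop had a median of -0.81, those running 300 bases or more past it -0.28, and the 21 with no stem-loop found -0.83. The last group includes Hist1h2al, which GENCODE does not hold and which was not searched. It also includes members with a GENCODE transcript shorter than the RefSeq gene, such as H3c10 (411 against 488 bases). A lack of the stem-loop in these genes is therefore not shown, as it may lie past the transcript ends. How the capture probes of the library kit cover such ends is not given in the sources used here, and the part of these properties in the fold changes was not tested.

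**Figure D5:**
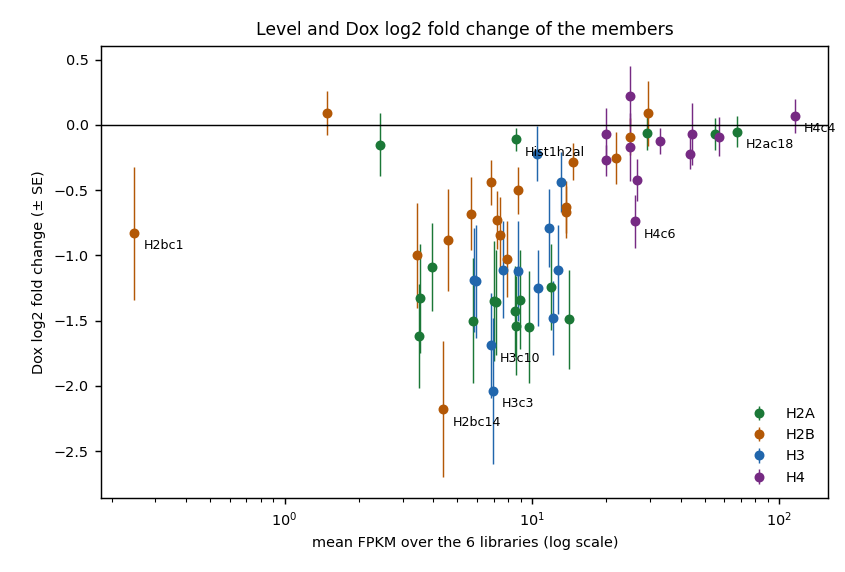
Mean FPKM of each member over the 6 libraries (horizontal, log scale) against its Dox log2 fold change (vertical, bars are SE of the fit), coloured by histone type. Members near or above an FPKM of 20 lie between -0.74 (H4c6) and 0.22 (H4c9), and the values under -1 all belong to members below that level.

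Histone genes outside the clusters had a median near 0. Of 11 replication-independent variant genes tested, 0 passed an unadjusted p of 0.05 in either direction, and their median log2 fold change was -0.03. H3f3a, which encodes the variant H3.3, held 9001, 10266 and 12192 reads without Dox and 10605, 12056 and 9641 with it (log2 fold change 0.07, SE 0.11). H2afz, encoding H2A.Z, had a log2 fold change of 0.01 (SE 0.12). H2afx, encoding the variant phosphorylated at DNA breaks, was the only one with no overlap, at -0.37 (SE 0.18, edgeR adjusted p = 0.552).

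Transcription and processing factors of histone mRNA were near 0 as a group. Of 25 such genes, 2 were lower and 0 higher at an unadjusted p under 0.05, with a median of 0.00. The lower ones were Eri1, an exonuclease that acts on the stem-loop (-0.26, SE 0.09, edgeR adjusted p = 0.400), and Cstf2, a cleavage factor (-0.24, SE 0.10, edgeR adjusted p = 0.471). Slbp had a log2 fold change of -0.13 (SE 0.09), Npat, the S phase activator of the clusters, 0.00 (SE 0.10), and Lsm11, a subunit of the U7 particle, 0.08 (SE 0.24). Of 29 histone chaperone genes, 5 were lower and 0 higher, with a median of -0.06.

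Genes of the cell cycle were also lower with Dox. Of 36 S phase genes, 19 were lower and 0 higher at an unadjusted p under 0.05, with a median log2 fold change of -0.57. Of 30 mitosis genes, 28 were lower and 0 higher, with a median of -1.72, and Cenpf and Nek2 passed an adjusted p of 0.05 in edgeR's test. The summed level of the S phase list was 362.0 to 384.0 CPM without Dox and 306.0 to 318.0 with it, and that of the mitosis list 273.0 to 345.0 against 52.7 to 125.0. At Rh2 doses of 0, 20 and 30 mg/kg the median log2 Dox ratio of the mitosis genes was -1.12, -1.55 and -2.49 and that of the S phase genes -0.41, -0.52 and -0.68. The histone members, at -0.09, -0.69 and -1.33, began nearer 0 than either list.

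Markers of other cells moved with the groups as well, and their part in the histone values was not tested. Of 6 B cell markers 5 were lower with Dox at an unadjusted p under 0.05, with a median log2 fold change of -1.29, none was at 0, and their sum was 14.2 to 36.7 CPM without Dox and 7.43 to 11.4 with it. The highest of these was the Rh2-30 mg/kg library and the lowest the Rh2-30 mg/kg + Dox library. Of 10 macrophage markers 1 was lower (sum 443.0 to 695.0 without Dox, 334.0 to 548.0 with it), and of 8 fibroblast markers 2 were (1550 to 2620 against 1020 to 1720), again with the highest sum in Rh2-30 mg/kg and the lowest in Rh2-30 mg/kg + Dox, and none at 0. Platelet markers went the other way in the fit, with 9 of 10 higher at an unadjusted p under 0.05 and 0 without overlap. Their sums were 32.5, 31.7 and 64.5 CPM without Dox and 192, 300 and 26.2 with it. At Rh2 doses of 0, 20 and 30 mg/kg their median log2 Dox ratio was 2.62, 3.74 and -1.35. At 30 mg/kg the platelet markers were thus lower with Dox, as the members were. Red cell markers summed to 3690, 2670 and 3370 CPM without Dox and 10600, 5980 and 1680 with it, with a median log2 fold change of 0.62 and 1 of 10, Epor, lower at an unadjusted p under 0.05. Cardiomyocyte markers, 1 of 10 higher, ran opposite to the members in the libraries with 30 mg/kg of Rh2, with their lowest sum (24900) in Rh2-30 mg/kg and their highest (34900) in Rh2-30 mg/kg + Dox, a median log2 ratio of 0.67. Of the other lists, 1 of 8 endothelial markers was lower, 1 of 6 neutrophil markers was higher, and of 5 T cell markers tested 1 was lower and 1 higher. Cd3d, a defining T cell gene, was at 0 in every library.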

How the data were processed

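RNA of hearts was sequenced in 6 libraries, 1 per condition with 5 hearts pooled, as 101-base reads. The authors trimmed the reads, aligned them to mm10 with HISAT2 2.1.0 and estimated abundance with StringTie 2.1.3b. The count table the authors deposited gives reads per gene as integers, not normalized, and was the table tested. The authors' deposited FPKM values served to compare levels between genes and as an alternative on the log2(FPKM + 0.1) scale. The authors' deposited TPM values were not used.

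The counts (86164411 to 90621002 per library) were tested with edgeR 4.0.16 under R 4.3.3 (TMM, quasi-likelihood test, two-sided, Benjamini-Hochberg over the 18328 genes with a mean count of at least 10). Models were Dox (3 libraries against 3) and Rh2 with Dox as a term (4 against 2). P-values measure the spread between pooled libraries of different Rh2 doses, not between animals. Alternatives were DESeq2 1.42.0, its size factors, no filter, Rh2 dose as a term, limma 3.58.1 on FPKM and leaving out each library. Single-library log2 ratios used a prior count of 0.5 and a fold of 2, with no p-value. Data were simulated for the same genes with the spread fitted to the real libraries and no Rh2 effect added. The changed genes were drawn from those with a mean count of at least 100. The Dox fit recovered 63 of 100 genes at a true log2 fold change of 1 and 93 of 100 at 2. It made 8 false calls. Recovery of genes with fewer counts was not simulated. Stem-loops came from GENCODE vM21 transcripts, promoters and positions from RefSeq on GRCm38.p6. Python 3.11.15 and matplotlib 3.10.9 drew the figures.

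The members and gene lists were chosen with earlier results of these data known. Named genes were the 3 members of each type with the highest mean count, members with an adjusted p under 0.05, and the 5 largest rises and falls with Dox (3 with Rh2) among members whose groups did not overlap. No member qualified as a rise with Dox or under Rh2.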

Additional observations from a re-analysis of the deposited data

How the results depend on the processing

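The number of genes at an adjusted p under 0.05 in the comparison with Dox was 5 with edgeR, 423 with DESeq2's Wald test and 0 with Rh2 dose as a term, and 0 to 14 when 1 library was left out. Members at that threshold numbered 0 with edgeR under every setting run and 17 with DESeq2. Members lower at an unadjusted p under 0.05 numbered 34 (5.91% of all genes) and 18 with Rh2 dose as a term (5.1%). When 1 library was left out they numbered 22 (without Rh2-30 mg/kg, 4.83% of all genes) to 37 (without Control, 5.2%). In the Rh2 comparison DESeq2 called 247 genes where edgeR called 0, and leaving out 1 library gave 0 to 3 members lower and 0 to 4 higher. The causes were not tested.

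With a fold of 1.5 in place of 2, members past it numbered 9 for Dox over Control (7 lower, beside 8.58% of all genes, and 2 higher, beside 11%), 6 for Rh2-20 mg/kg over Control (5 higher, 6.95%, and 1 lower, 6.62%), 37 for Rh2-30 mg/kg over Control (36 higher, 16.1%, and 1 lower, 5.67%) and 9 for Rh2-20 mg/kg + Dox over Dox (all lower, 7.4%). At a fold of 2 on the FPKM scale the last 3 ratios gave 2, 18 and 1, of which H2bc6, lower in each, was 1, and 1, 17 and 0 without it. Log2 fold changes with Dox that lay near 0 changed sign when 1 library was left out, over ranges of -0.16 to 0.03 for H2ac18, -0.18 to 0.03 for H2bc4, -0.17 to 0.32 for H2bc18, -0.38 to 0.02 for H3c7, -0.01 to 0.18 for H4c4 and -0.20 to 0.03 for H4c3, and H2bc18 was also -0.01 on FPKM. None of the sums per type moved by more than the spread between libraries under the alternatives run. The replicate numbers name nothing shared between conditions, so the pairing of libraries with and without Dox was by Rh2 dose, in the fit with dose as a term. With 1 library per condition, the depth limits only the members with few reads, such as H2bc1, and the number of libraries limits the rest.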

Other observations

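Histone genes of the same clusters that the name rule leaves out were also read. Of 8 such genes tested, 3 were lower and 0 higher with Dox at an unadjusted p under 0.05, with a median log2 fold change of -0.22, and these 3 were linker histone genes, named after their values were seen. At Rh2 doses of 0, 20 and 30 mg/kg H1f5 held 95, 96 and 132 reads without Dox and 55, 23 and 16 with it (log2 fold change -1.72, SE 0.49, edgeR adjusted p = 0.344). H1f3 held 253, 293 and 430 against 197, 161 and 104 (-1.03, SE 0.29, edgeR adjusted p = 0.344), and H1f1 held 55, 80 and 109 against 48, 38 and 22 (-1.12, SE 0.39, edgeR adjusted p = 0.415). The linker genes H1f2 and H1f4 lay at 0.14 (SE 0.11) and -0.23 (SE 0.19), with 757 to 1061 and 498 to 985 reads per library. Here too the genes with fewer reads had the lower log2 fold changes.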
